A study of Rattus norvegicus with 2 samples.

Results

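Sox10 peaks that lie close together along the chromosome are described here as joined groups, together with the Chd7 peaks inside them. The groups were chosen by the positions of the deposited Sox10 peaks: on chromosomes 1 to 20, neighbouring peaks were joined when the gap between them was at most 12.5 kb, and groups of 5 or more peaks were kept. This gave 373 groups holding 2282 Sox10 peaks, out of 38028 Sox10 peaks on these chromosomes and 38915 in the whole list. A further 19591 Sox10 peaks were joined to no other and serve as the lone peaks for comparison, and 16155 peaks lay in groups of 2 to 4. Because the positions of Sox10 peaks made the groups, their length, peak number and Sox10 scores are given as a description without a test. The Chd7 list comes from another immunoprecipitation and was not used to choose them.

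Both lists come from chromatin immunoprecipitation followed by sequencing in primary oligodendrocyte progenitors of Sprague Dawley rats that had been differentiated for 3 days with the thyroid hormone T3. Chromatin was precipitated with an antibody against Sox10 (from Abcam) or against Chd7 (from CST), with 1 library for each, and strain, time and hormone were the same for both. The values are peak positions on the rat build rn5 and a caller score for each peak. Depth is unknown, since the lists hold no read counts. The cell type could not be checked against marker genes, because an rn5 annotation was not used here, and groups are therefore identified by position and not by gene.

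Sox10 is an HMG-box transcription factor that binds DNA directly and is required for oligodendrocytes to differentiate and to express myelin genes. Chd7 is an ATP-dependent chromatin remodeler, an enzyme that uses ATP to move nucleosomes. Regulatory regions in which many sites of a cell's lineage factors stand close together are often described by joining neighbouring sites into longer domains. The study's title concerns both proteins in the timing of myelination, and the overlap of the lists addresses where along the genome both were called.

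The 373 groups together spanned 10.9 Mb, of which the member peaks themselves covered 1.98 Mb. A group was 28.1 kb long in the median (quartiles 21.3 and 35.4 kb), with extremes of 4.76 and 77.9 kb. Small groups made up most of the set: 190 had 5 peaks, 135 had 6 or 7, and 48 had 8 or more, up to 22. Just outside the limit on peak number, 531 groups had 4 peaks, with a median length of 17.7 kb and a median summed score of 748, against 23.8 kb and 999 for groups of 5. Near the joining distance itself, 1597 gaps between Sox10 peaks measured from 10 kb to 12.5 kb and were joined, and 1423 gaps from 12.5 kb to 15 kb were not.

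Members lay close to each other by the joining rule, and none overlapped another. The median gap before any Sox10 peak on chromosomes 1 to 20 was 29.5 kb. Of the 1909 gaps between neighbouring members, the median was 3.96 kb (quartiles 1.17 and 7.70 kb) and the widest was 12.477 kb. Gaps of up to 500 bp numbered 289, or 15.1%, and gaps of up to 1 kb numbered 437, or 22.9%. With peaks up to 1 kb apart counted as 1, 234 groups of 5 or more were obtained in place of 373. Peaks covered 17.1% of a group in the median (quartiles 13.0% and 23.1%), so a typical group was mainly sequence between peaks.

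Member peaks were wider than lone ones but had nearly the same scores. The median width was 735 bp for members (quartiles 575 and 965 bp) and 634 bp for lone peaks (506 and 811 bp). The median score was 119 for members (quartiles 72.3 and 263) and 112 for lone peaks (68.9 and 234). The members were 6.0% of the Sox10 peaks on chromosomes 1 to 20, held 6.39% of their summed score and covered 7.16% of their length. Of the members 10.5% lay in the strongest decile of all Sox10 scores, against 9.40% of the lone peaks. For the widest decile these shares were 18.1% and 8.22%. Of the 28 Sox10 peaks with a score of at least 3100, 2 were members and 11 were lone peaks.

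The score of a group was shared unevenly among its peaks. The summed score had a median of 1164 (quartiles 772 and 1922, range 322 to 6862). It grows with the number of peaks as well as with their strength. The highest peak supplied 39.1% of it in the median (quartiles 31.1% and 49.3%), and in 88 groups it supplied over 50%. From the highest peak down, the median score of a member fell by rank from 482 to 235, 143, 97.0 and 71.7 for rank 5. The highest peak stood at an end of the group in 136 of 373 groups, or 36.5%, while 32.7% of all members stood at an end.

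**Figure D1:**
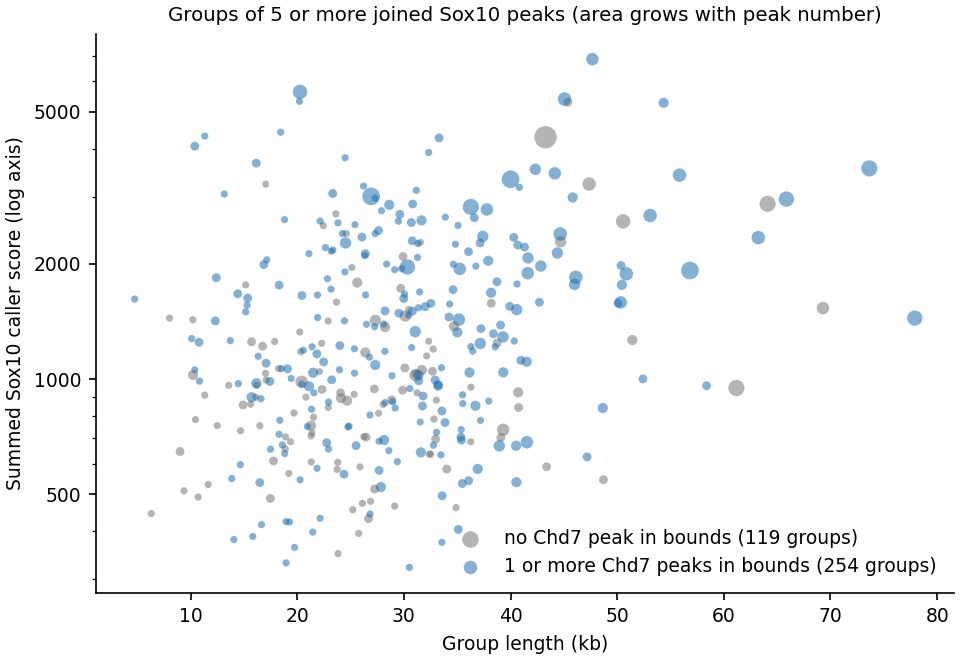
Length in kb (horizontal) and summed Sox10 caller score (vertical, log axis) of the 373 groups. Each point is 1 group, its area grows with the number of Sox10 peaks, and blue marks the 254 groups with a Chd7 peak in their bounds. The groups run from 4.76 to 77.9 kb, and the 119 without Chd7 (grey) have a median summed score of 921 against 1388 for the others.

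The group of highest summed score lay on chromosome 10 at 88283690 to 88331364. Its 9 Sox10 peaks spanned 47.7 kb and summed to 6862. The highest peak, of score 2322, lay 43.1 kb from the start, and 3 others scored 962, 1673 and 1253. Chd7 was called at 2 of the 9 peaks, with a Chd7 score of 177 over the Sox10 peak of 1673 and of 59.8 over one of 218. The highest Sox10 peak of this group had no Chd7 call.

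A denser group lay on chromosome 2 at 218107707 to 218127969, with 11 peaks in 20.3 kb and a summed score of 5635. Its strength sat at its left end, where adjoining peaks scored 2541 and 1897, while the other 9 scored from 63.7 to 333. Both strong peaks carried Chd7, with Chd7 scores of 109 and 92.8, and none of the other 9 did. On chromosome 7, the group at 2944768 to 2989830 had 10 peaks in 45.1 kb and a summed score of 5399. Its peaks of score 1488, 1127 and 505 carried Chd7, with Chd7 scores of 69.5, 108 and 62.9. Peaks of score 1002 and 631 in the same group had none.

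Others among the 10 highest summed scores came from few peaks. On chromosome 10 at 56335082 to 56355293, 5 peaks summed to 5324, and Chd7 (score 55.8) was called at the highest, of score 2218, but not at one of 2150 separated from it by a gap of 2677 bp. On chromosome 8 at 115645379 to 115699733, 7 peaks summed to 5277, and Chd7 was called at those of 1353 and 1219, but not at the highest, of 2031. Both members with a score of 3100 headed groups of 5 peaks on chromosome 1, at 102761504 to 102779953 and at 83374248 to 83385580. Chd7 was called at that peak alone in each group, with Chd7 scores of 63.7 and 96.7. The last of the 10 groups, on chromosome 1 at 49334889 to 49368189, had 6 peaks, and Chd7 was called at those of score 2191, 784 and 418 with Chd7 scores of 219, 237 and 108.

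High summed score did not always come with Chd7. Of the 10 groups of highest summed score, 8 held a Chd7 peak. The exceptions were on chromosome 20 at 7499774 to 7545150, where 6 peaks scored from 70.3 to 2061, and on chromosome 1 at 236141777 to 236185061. The latter was the group with the most peaks, 22 in 43.3 kb, of which 1 was 5229 bp wide and had the highest score of 1005. The next groups by summed score without Chd7 were on chromosome 11 at 50292404 to 50339781 (10 peaks, summed score 3236), chromosome 10 at 33949774 to 33966827 (5 peaks, 3235) and chromosome 17 at 45628562 to 45692667 (13 peaks, 2872). In the chromosome 10 group the highest peak alone scored 2624, or 81.1% of the sum.

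**Figure D2:**
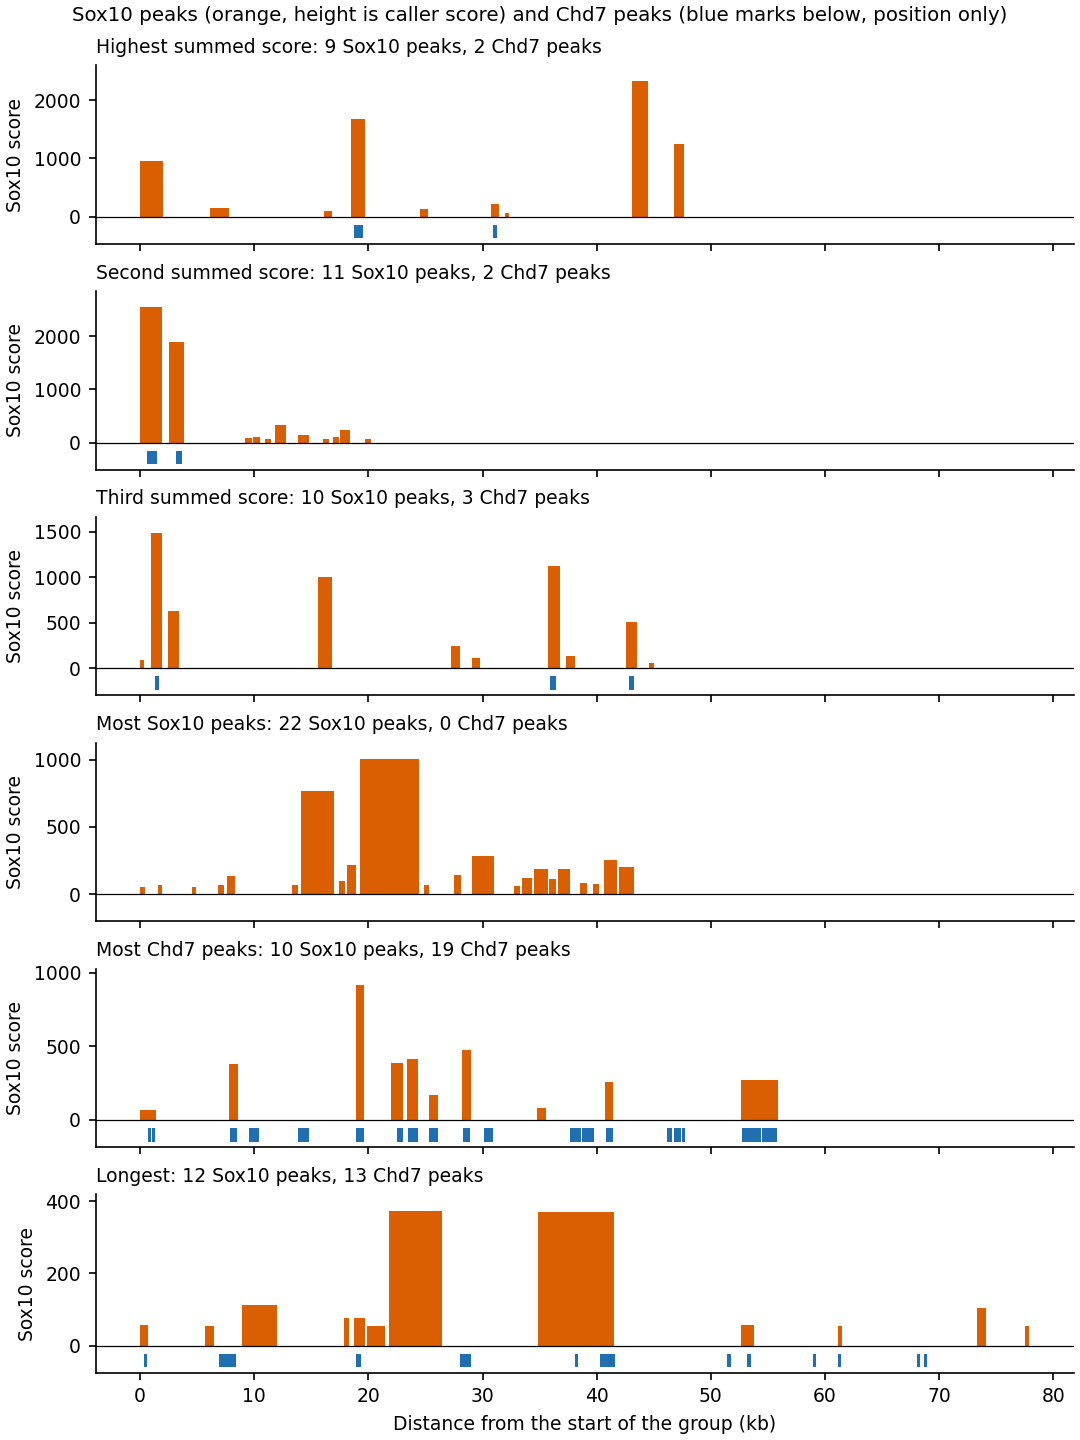
Maps of 6 groups, drawn as distance from the start of the group in kb. Orange bars are Sox10 peaks with their width and caller score, and blue marks below the line show the positions of Chd7 peaks, which are not scaled by score. In the upper 3 groups each Chd7 mark lies under a Sox10 peak, the group of 22 Sox10 peaks has none, and in the lower 2 groups Chd7 marks also lie between Sox10 peaks.

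Chd7 was called somewhere in the bounds of 254 of the 373 groups, a share of 68.1% (95% exact binomial interval 63.1% to 72.8%). Such intervals run over groups or peaks and express counting error alone. The single library of each antibody leaves no replicates, and neighbouring peaks share their surroundings, so no p-value is given for any comparison below. The groups held 516 Chd7 peaks, or 3.53% of those on chromosomes 1 to 20. Of the groups 133 held 1 Chd7 peak, 66 held 2, 30 held 3 and 25 held 4 or more. The share was higher in groups of more peaks, which are also longer. By the same count it was 15.2% for lone peaks, 29.7% for groups of 2 and 45.3% for groups of 3 or 4. It was 49.3% for groups of 4 peaks, 64.2% for 5, 71.1% for 6 or 7 and 75% for 8 or more. The intervals of the last 3 overlapped. Each further peak is another place for a Chd7 call, and the share expected from peak number alone was not computed.

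Groups with Chd7 had the higher Sox10 scores at their highest peak. Their highest Sox10 peak had a median score of 567 (quartiles 320 and 1025), against 333 (223 and 523) in the 119 groups without Chd7. Their median length was 29.7 kb against 25.3 kb, and their median peak number was 6 against 5. A highest or summed score rises with peak number, which was not matched here. By quartile of summed score, Chd7 lay in 56.4% of the weakest groups (95% exact interval 45.8% to 66.6%), 57.0% and 73.1% of the middle ones and 86.0% (77.3% to 92.3%) of the strongest.

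Taken peak by peak, the members overlapped Chd7 only slightly more often than lone peaks. Chd7 overlapped 422 of the 2282 members, or 18.5% (95% exact interval 16.9% to 20.1%), and 2970 of the 19591 lone peaks, or 15.2% (14.7% to 15.7%). Over all Sox10 peaks on chromosomes 1 to 20 the share was 15.9%. The difference between members and lone peaks was 3.33 percentage points (95% Newcombe interval 1.71 to 5.05). It was in the same direction on 16 of the 20 chromosomes and opposite on 4, among them chromosome 5, where 9.88% of 162 members and 15.7% of lone peaks overlapped Chd7. Within deciles of Sox10 score the mean difference was 2.42 points. Within deciles of Sox10 width it was -0.67 points, where members had the lower median Sox10 score in all 10 deciles. Within deciles of score and 5 classes of width it was 1.60 points. The part of width in the difference was not tested. With a joining distance of 5 kb it was -0.28 points. Without 1 Mb windows that held 30 or more Chd7 peaks it was 1.83 points.

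Within deciles of Sox10 score, the net excess of 2.42 points lay mainly in the highest-scoring peak of each group. Chd7 overlapped 178 of the 373 highest peaks, or 47.7% (95% exact interval 42.6% to 52.9%), whereas lone peaks of the same score deciles overlapped Chd7 in 33.2% of cases, a difference of 14.5 points. The second-ranked peaks overlapped Chd7 in 26.3% of cases against 24.1% of such lone peaks, and those of rank 3 in 16.6% against 16.3%. At rank 4 the shares were 8.58% and 11.1%, and at rank 5 they were 6.70% and 7.02%. The 1909 members that were not the highest of their group overlapped Chd7 in 12.8% of cases (11.3% to 14.4%), against 12.7% for lone peaks of the same score deciles, a difference of 0.052 points. The difference for highest peaks was 13.6 points with 50 finer score classes and 14.1 points within score deciles and 5 classes of width. For the other members these differences were 0.11 and -0.84 points. Within deciles of Sox10 width alone, where score was not matched, highest peaks differed by 20.9 points and the other members by -4.89 points.

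**Figure D3:**
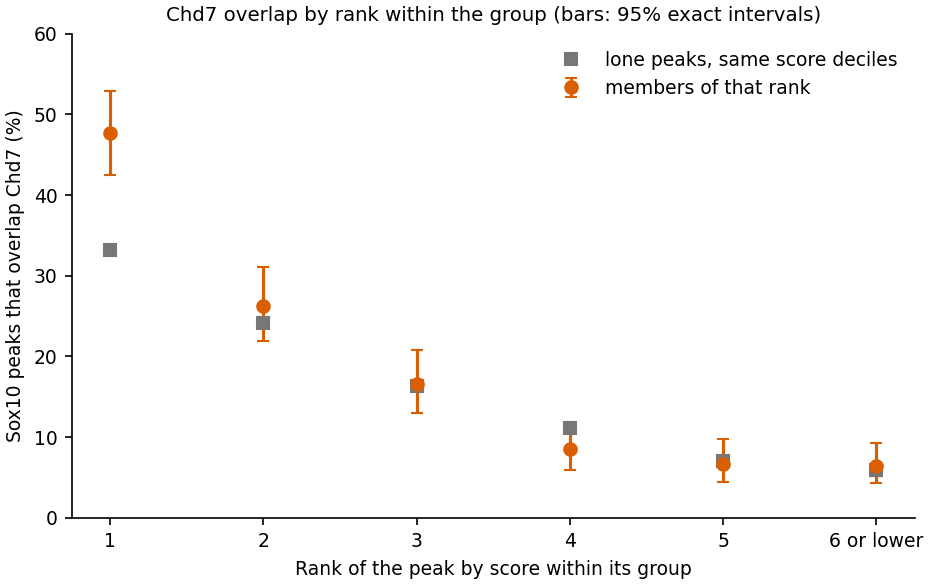
Share of Sox10 peaks that overlap Chd7 (vertical, %) by the rank of the peak within its group (horizontal, 1 is the highest score). Orange points are members with 95% exact intervals, and grey squares are lone peaks weighted to the same score deciles. The highest peaks stand at 47.7% against 33.2%, and from the second rank down the grey squares lie within the orange intervals.

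The same contrast was smaller in groups below the limit of 5. In groups of 2, 24.0% of the highest peaks overlapped Chd7 against 22.9% of lone peaks of the same score deciles, a difference of 1.13 points. In groups of 3 or 4 the shares were 32.0% and 27.7%, a difference of 4.39 points. The highest peaks of groups of 5 had 46.8% against 32.8%, and those of groups of 6 or more had 48.6% against 33.6%, differences of 14.01 and 15.1 points. The 95% exact intervals of these last shares overlapped (39.6% to 54.2% and 41.2% to 56.1%).

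By decile of Sox10 score, the difference between members and lone peaks was largest in the strongest. In the strongest decile, where Sox10 scores ran from 513 upward, 143 of 239 members overlapped Chd7, or 59.8% (95% exact interval 53.3% to 66.1%), against 789 of 1842 lone peaks, or 42.8% (40.6% to 45.1%). The difference was 17.0 points (95% Newcombe interval 10.3 to 23.4). Smaller groups were also above lone peaks in this decile: the share was 49.9% in groups of 2, a difference of 7.02 points (3.22 to 10.8), and 51.1% in groups of 3 or 4, a difference of 8.25 points (3.89 to 12.6). Members of this decile were higher on 15 of 20 chromosomes, with as few as 2 members on a chromosome. In the ninth decile the shares were 38.9% and 33.0%, with an interval of the difference from -0.30 to 12.4 points. Over all 10 deciles the members were higher in 6, and the interval of the difference lay above 0 in 2, the strongest and the weakest. In the weakest, 6.17% of members and 3.15% of lone peaks overlapped Chd7.

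**Figure D4:**
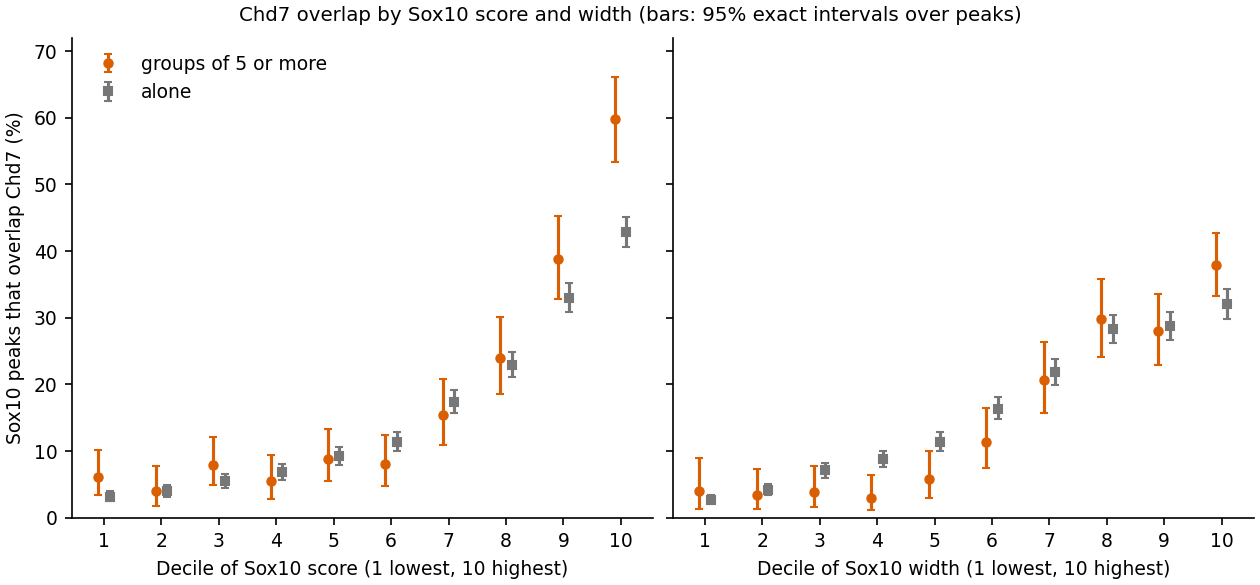
Share of Sox10 peaks that overlap Chd7 (vertical, %) by decile of Sox10 score (left) and of Sox10 width (right), for members of groups of 5 or more (orange) and lone peaks (grey), with 95% exact intervals over peaks. In the strongest score decile the members stand at 59.8% and the lone peaks at 42.8%. Members are higher in 3 of the 10 width deciles. The interval of the difference lies below 0 in width deciles 4 and 5 and above 0 in the widest, at 37.9% against 32.0%.

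Within the strongest decile the contrast again followed rank. The 173 members that were the highest of their group overlapped Chd7 in 66.5% of cases (95% exact interval 58.9% to 73.5%), and the 66 that were not in 42.4% (30.3% to 55.2%). The latter differed from lone peaks by -0.41 points (95% Newcombe interval -11.8 to 11.8), an interval too wide to show that they are alike. Sox10 scores were unequal in these sets, with medians of 894, 697 and 764 for highest members, other members and lone peaks. In 4 classes of Sox10 width within this decile the members were higher by 13.3, 4.55, 21.2 and 19.9 points, from the narrowest class to the widest. The 95% Newcombe interval of the difference included 0 in the narrower pair of classes and lay above 0 in the wider pair.

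Chd7 was usually present at few peaks of a group. Over all members 18.5% overlapped Chd7, and over all Sox10 peaks on chromosomes 1 to 20 it was 15.9%. The counts per group and per pair expected from these shares were not computed, so they are not shown to be particular to the groups. Of the 249 groups with a member that overlapped Chd7, 143 had 1 such member, 67 had 2, 23 had 3 and 16 had 4 or more. In 178 of these groups, or 71.5% (95% exact interval 65.4% to 77.0%), the highest Sox10 peak was among them. Where there was 1 such member, it was the highest Sox10 peak in 90 of the 143 groups. Every member carried Chd7 in 2 groups. Of the 1909 pairs of neighbouring members, both carried Chd7 in 84, and 1 of the pair did in 527. By place in the group, 20.0% of members at an end (17.2% to 23.0%) and 17.8% of those inside (15.9% to 19.8%) overlapped Chd7.

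Chd7 peaks at members were somewhat stronger and wider than those at lone peaks. Their median Chd7 score was 84.0 (quartiles 63.2 and 133) over 442 overlapping pairs, against 75.5 (59.5 and 106) over 3034 pairs at lone peaks. Median Chd7 widths were 439 bp and 355 bp. The centres of the Chd7 and Sox10 peaks lay 82.5 bp apart in the median at members and 67 bp at lone peaks, and within 200 bp of each other in 75.6% and 87.4% of pairs. The Chd7-rich windows left out above held 165 of 2282 members and 191 of 19591 lone peaks. They also held 78 of the 442 Chd7 peaks on members. Of the Sox10 peaks with Chd7, 143 of 422 members and 789 of 2970 lone peaks were in the strongest score decile. Chd7 score, Chd7 width and distance were compared without matching windows, Sox10 score or Sox10 width. The part of each was not tested.

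Most Chd7 peaks in the groups sat on a Sox10 peak and not between Sox10 peaks. Of the 516 Chd7 peaks in group bounds, 442 overlapped a Sox10 peak (85.7%, 95% exact interval 82.3% to 88.6%), and 74 lay in a gap. Outside the groups 40.8% of 14108 Chd7 peaks overlapped Sox10, but that sequence holds far fewer Sox10 peaks per length. The Chd7 peaks in gaps lay a median of 1.20 kb from the edge of the nearest member, with a median Chd7 score of 80.1.

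The frequency of Chd7 in the gaps rested on a few stretches rich in Chd7 peaks. The gaps held 8.34 Chd7 peaks per Mb (95% exact Poisson interval 6.55 to 10.5), against 3.08 (2.92 to 3.24) in the 12.5 kb on each side of lone Sox10 peaks. The 12.5 kb on each side of the groups held 8.52 per Mb (6.75 to 10.6) from 79 Chd7 peaks, with an interval that overlaps that of the gaps. On chromosomes 1 to 20, 26 windows of 1 Mb held 30 or more Chd7 peaks, and 49 of the 74 Chd7 peaks in gaps and 54 of the 79 beside the groups lay in them. Without the 26 groups that touched such windows, the gaps held 2.90 per Mb (1.86 to 4.32), and the sides of lone peaks held 2.59 (2.44 to 2.74). The windows were themselves selected on the number of Chd7 peaks. Counted by the position of each Chd7 peak, 389 of those in group bounds lay outside the windows, and 364 of these overlapped a Sox10 peak, or 93.6% (90.7% to 95.8%), against 78 of 127 inside them, or 61.4% (52.4% to 69.9%).

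**Figure D5:**
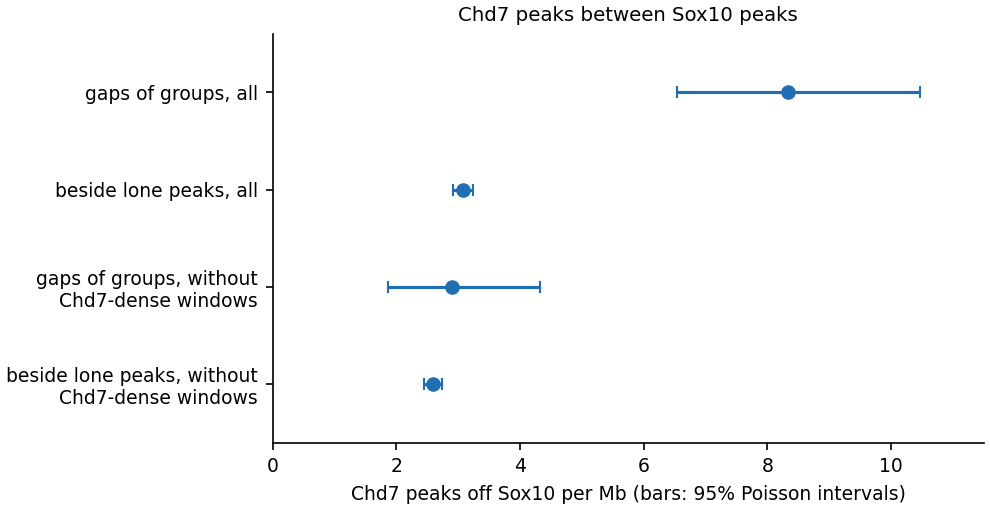
Chd7 peaks that overlap no Sox10 peak, per Mb of sequence outside Sox10 peaks (horizontal), in the gaps of the groups and in the 12.5 kb on each side of lone Sox10 peaks, with 95% exact Poisson intervals. The gaps stand at 8.34 per Mb over all groups and at 2.90 without the windows dense in Chd7, where the intervals of both kinds of sequence overlap.

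Most of the 10 groups with the most Chd7 peaks touched windows dense in Chd7. The first lay on chromosome 1 at 187839291 to 187895138, where 10 Sox10 peaks in 55.8 kb stood with 19 Chd7 peaks, 11 on Sox10 peaks and 8 in gaps. Chd7 overlapped 9 of its 10 Sox10 peaks, with a Chd7 score of 3100 over the highest Sox10 peak, of 919. The second, at 187647876 to 187698237 on the same chromosome, had 14 Chd7 peaks and carried Chd7 at all 6 Sox10 peaks. Another group of that stretch, at 188151800 to 188183802, also carried Chd7 at all 6. On chromosome 7, the longest group, at 99824483 to 99902383, had 12 Sox10 peaks in 77.9 kb and 13 Chd7 peaks, 7 of them in gaps, and lay outside the dense windows. Of the 10 groups with the most Chd7 peaks, 9 touched a dense window. Groups and windows were both selected here on the number of Chd7 peaks, so this count is largely fixed by the selection. Some of these had only weak Sox10 peaks: on chromosome 12 at 249652 to 285128 the highest of 6 Sox10 peaks scored 128, and 6 of the 7 Chd7 peaks lay in gaps.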

How the data were processed

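Peaks of 1 Sox10 and 1 Chd7 library were analysed. Per the submitters' processing notes, the tools were CASAVA, Bowtie2 and MACS, with rn5 as the build. For their versions and settings, and for a control library, the sources used here give no information. Each peak has a caller score deposited by the authors, at least 50 in both lists, whose scale is not stated, so scores were compared only within 1 list. Summed scores describe the groups and have no unit.

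Sox10 peaks were joined as described, and a Chd7 peak counted as shared with 1 bp of overlap. Group and overlap counts were checked with bedtools 2.31.1, and the code was tested on simulated data, where 20 of 20 list pairs returned every planted group and overlap. Tables were made with pandas 2.3.3 and numpy 2.4.6 under Python 3.11.15, intervals with scipy 1.17.1 and plots with matplotlib 3.10.9. Deciles are over all Sox10 peaks on chromosomes 1 to 20, and differences within them are weighted by the members. Coordinates are 1-based. Groups named are the 10 highest by summed score, by peak number and by Chd7 peaks, the 5 longest and the 5 of highest summed score without Chd7, with ties broken by summed score and position. Gene and cell type marker lists were meant for an rn5 annotation and were not used here. The groups, their limits and all lists were chosen with earlier results of these data known. The highest peak of each group within score deciles was planned only as an alternative to the main difference. Its use as a result of its own, the other comparisons by rank and those in the strongest decile were added after seeing the data.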

Additional observations from a re-analysis of the deposited data

How the results depend on the processing

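The number of groups, 373, was 70 and 1174 with joining distances of 5 and 25 kb, 904 and 21 with at least 4 and 10 peaks, 48 in the upper 50% of Sox10 peaks by score, and 234 with peaks up to 1 kb apart counted as 1. The members' share with Chd7, 18.5%, was 15.7% at 5 kb, 28.5% in the upper 50% of Sox10 peaks, 12.9% with the upper 50% of Chd7 peaks, 14.6% with centres within 200 bp, 16.8% without the windows dense in Chd7 and 21.1% with close peaks counted as 1. The share of groups with Chd7, 68.1%, was 58.6% at 5 kb, 57.1% and 76.2% with at least 4 and 10 peaks, 77.1% in the upper 50% of Sox10 and 53.9% with the upper 50% of Chd7 peaks. The difference from lone peaks, 3.33 points, changed direction at 5 kb (-0.2758) and within deciles of width (-0.6656). It was 2.42 within deciles of score, 1.60 within deciles of score and 5 classes of width, and 1.08 with centres within 200 bp. With close peaks counted as 1 it was 5.43, and for the highest peak of each group it was 14.5. In the strongest decile, 17.0 points became 9.38 with centres within 200 bp and 9.86 at 25 kb, and the other 11 alternatives gave values within the interval. For highest peaks, 14.5 points became 8.16 at 5 kb, 9.11 and 23.6 with at least 4 and 10 peaks, 8.95 with centres within 200 bp, 9.22 in the upper 50% of Sox10 and 20.9 within deciles of width; all 14 alternatives were above 0. The cause of these shifts was not tested. No paired analysis was possible because the lists come from single immunoprecipitations, and no replicate could be left out. Sites under the score of 50 are not listed, and depth is unknown.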

Other observations

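Groups with many peaks differed in shape. On chromosome 7 at 22525350 to 22582174, 15 Sox10 peaks covered 60.1% of 56.8 kb, with a highest score of only 277 and 1 peak of 7004 bp. This group touched a window dense in Chd7 and held 10 Chd7 peaks. On chromosome 2 at 174449888 to 174511064, 13 narrow peaks of 383 to 994 bp covered 11.9% of 61.2 kb, the highest scored 154, and there was no Chd7 call. On chromosome 19 at 41698597 to 41772234, 13 peaks stretched over 73.6 kb, the highest of which, 1331, stood at the right end and carried the strongest of its 3 Chd7 peaks, of score 167. On chromosome 2 at 11726938 to 11753868, 15 peaks in 26.9 kb had 1 Chd7 call, at the highest, of score 1283.

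The groups were spread unevenly over chromosomes. Members were 10.1% of the Sox10 peaks on chromosome 7 and 2.21% on chromosome 4, where 9 groups were found against 34 on chromosome 7. In 5 groups Chd7 was called in gaps alone. What genes lie in or near the groups was not analysed here.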
